A study of Homo sapiens with 18 samples.

Results

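The genes described here are 39 enzymes, carriers and regulators of branched-chain amino acid and fatty acid oxidation, most of them mitochondrial. They were chosen by name from the 39496 genes of the count table, and all 39 passed edgeR's filter on low counts. ETFA and ACSL4 passed it only through T24 cells and ABAT only through UM-UC-3 cells, with a mean under 10 reads in each group of the other line, so their difference between the lines is a description. Their RNA was measured in UM-UC-3 and T24 cells, established human bladder cancer cell lines labelled as transitional cell cancer, after transfection with siNC, a negative control siRNA, or with siACAT1-1 or siACAT1-2, which target different sequences of ACAT1. Each of the 6 groups of cell line and siRNA held 3 libraries that the labels call biological replicates, and nothing further is given on how the cultures differed, so that p values may cover no more than the spread between these cultures. The cells of every group carry the genotype label WT, the only manipulation was the transfection, and the time from transfection to harvest was not given in the sources used here. UM-UC-3 cells were grown in MEM and T24 cells in RPMI-1640, both with fetal bovine serum, so the cell line and its medium cannot be told apart in any difference between the lines.

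The depth ran from 25163490 to 34417230 reads counted on genes (median 28613163). Of 6 epithelial markers, 3 reached a median of 1 RPKM in UM-UC-3 cells (KRT7, KRT8 and KRT18) and 5 in T24 cells, while CDH1 had a median of 0 RPKM in both. Of 7 urothelial markers, 0 reached a median of 1 RPKM in UM-UC-3 cells and 1, FOXA1, did in T24 cells. PPARG, listed as a urothelial marker too but counted with the pathway genes, had medians of 0.190 RPKM in UM-UC-3 and 4.53 RPKM in T24 cells. In UM-UC-3 cells the labelled cell type therefore rests on keratins here. Of 3 leukocyte markers, PTPRC and CD3E had medians of 0 RPKM in both lines, while CD68, a lysosomal protein abundant in macrophages, had medians of 168 RPKM in UM-UC-3 and 36.6 RPKM in T24 cells. Of 3 fibroblast markers, 1, COL1A1, reached a median of 1 RPKM in both lines. The part of CD68 and COL1A1 in the differences between the lines was not tested. Libraries of T24 replicate 2 stood apart from replicates 1 and 3 with all 3 siRNAs for several genes described below. Values without these 3 libraries are given for part of the results in which replicate 2 set the overlap of the groups or changed a call.

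Valine, leucine and isoleucine lose their amino group to a branched-chain aminotransferase, and the resulting keto acids are decarboxylated by the branched-chain keto acid dehydrogenase complex, which a kinase switches off and a phosphatase switches on. The products pass through chains of acyl-CoA dehydrogenases, hydratases and further dehydrogenases that mirror the beta-oxidation spiral of fatty acids, and both routes hand electrons to the electron transfer flavoprotein. ACAT1, the knocked-down gene, is a mitochondrial thiolase that splits the last intermediate of isoleucine breakdown and acts on acetoacetyl-CoA in ketone body metabolism. Long-chain fatty acids enter the mitochondrion as carnitine esters, a step controlled by CPT1A.

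The results turn first on the 3 genes whose RNA differed most between the lines, ETFA, the alpha subunit of the electron transfer flavoprotein, ACSL4, an acyl-CoA synthetase with a preference for arachidonic acid, and CPT1A. RefSeq promoter windows (GRCh38.p14) of 300 bases, 250 before to 50 after the annotated start, were matched for 35 of the 39 genes by symbol and for 27305 genes in all. The 250 bases before the RefSeq start are shown for these 3 genes, so that the sequences ahead of that start can be set side by side. The gene spans used for counting reach into these stretches, to chr15:76311472 for ETFA, chrX:109733403 for ACSL4 and chr11:68844410 for CPT1A. Each runs 5′ to 3′ on the strand of its gene, the minus strand for all 3, and capitals mark a GC box (GGGCGG, or CCGCCC where it lies on the other strand). ETFA lies at chr15:76311470-76311719, ACSL4 at chrX:109733258-109733507 and CPT1A at chr11:68844278-68844527.
ETFA: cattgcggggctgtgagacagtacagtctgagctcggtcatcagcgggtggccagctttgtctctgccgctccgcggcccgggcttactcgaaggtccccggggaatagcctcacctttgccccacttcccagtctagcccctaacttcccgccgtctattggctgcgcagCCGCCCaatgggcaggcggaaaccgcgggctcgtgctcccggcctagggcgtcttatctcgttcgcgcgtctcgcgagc
ACSL4: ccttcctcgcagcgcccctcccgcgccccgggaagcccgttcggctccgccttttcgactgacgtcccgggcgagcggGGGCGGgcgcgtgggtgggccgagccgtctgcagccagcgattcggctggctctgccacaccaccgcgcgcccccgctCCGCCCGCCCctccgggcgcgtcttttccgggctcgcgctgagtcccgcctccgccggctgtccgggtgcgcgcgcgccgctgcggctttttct
CPT1A: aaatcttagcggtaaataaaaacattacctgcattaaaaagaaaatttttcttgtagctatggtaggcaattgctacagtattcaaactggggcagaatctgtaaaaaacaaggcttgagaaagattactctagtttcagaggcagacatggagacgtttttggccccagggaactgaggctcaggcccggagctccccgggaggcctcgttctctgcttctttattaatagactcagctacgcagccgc

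The ETFA stretch held 1 GC box and 25 CpG dinucleotides. The ACSL4 stretch held 3 GC boxes, of which 2 overlap, and 42 CpG dinucleotides. The CPT1A stretch held 0 GC boxes and 7 CpG dinucleotides. Over the whole 300-base windows, searched on both strands, 29 of the 35 matched genes had a GC box, against 44.6% of all promoters, and their median CpG count was 26 against 14. All promoters were not limited to genes with reads here, so the sets differ in more than the pathway. For each gene the first window listed was taken. The letters TATAAA were present in 1 of 35, the promoter of ACADVL, against 12% of all promoters. The element TNAAGGTCA, bound by estrogen-related receptors, and a direct repeat of AGGTCA with 1 base between the copies, bound by peroxisome proliferator-activated receptors, were each found in 0 of 35, against 0.963% and 0.0220% of all promoters, which says only that these letters are not in these windows.

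Levels between genes were compared in RPKM, the reads of a gene scaled to the length of its exons and to the counted reads of the library, as calculated by the authors. Over the 9 libraries of UM-UC-3 cells, 32 of the 39 genes had a median of 1 RPKM or more and 8 had a median of 10 RPKM or more. In T24 cells these counts were 30 and 9. The most abundant in UM-UC-3 cells was ECHS1, the short-chain enoyl-CoA hydratase (33.8 to 47.0 RPKM, median 39.8), next to ACADVL, the very long-chain acyl-CoA dehydrogenase (33.0 to 41.5 RPKM, median 37), and their ranges overlapped. In T24 cells HSD17B10, a dehydrogenase of isoleucine breakdown that is also a subunit of mitochondrial ribonuclease P, was the most abundant (21.5 to 62.2 RPKM, median 36.6), with a range that took in that of ECHS1 (21.3 to 28.1 RPKM, median 23.8) almost whole. At the low end stood ABAT, the 4-aminobutyrate transaminase, with a median of 0.0430 RPKM in UM-UC-3 and 0.00646 RPKM in T24 cells, and ALDH6A1, the methylmalonate semialdehyde dehydrogenase, with 0.371 and 0.228 RPKM. RNA of whole cultures cannot tell fewer expressing cells from less RNA per cell.

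**Figure D1:**
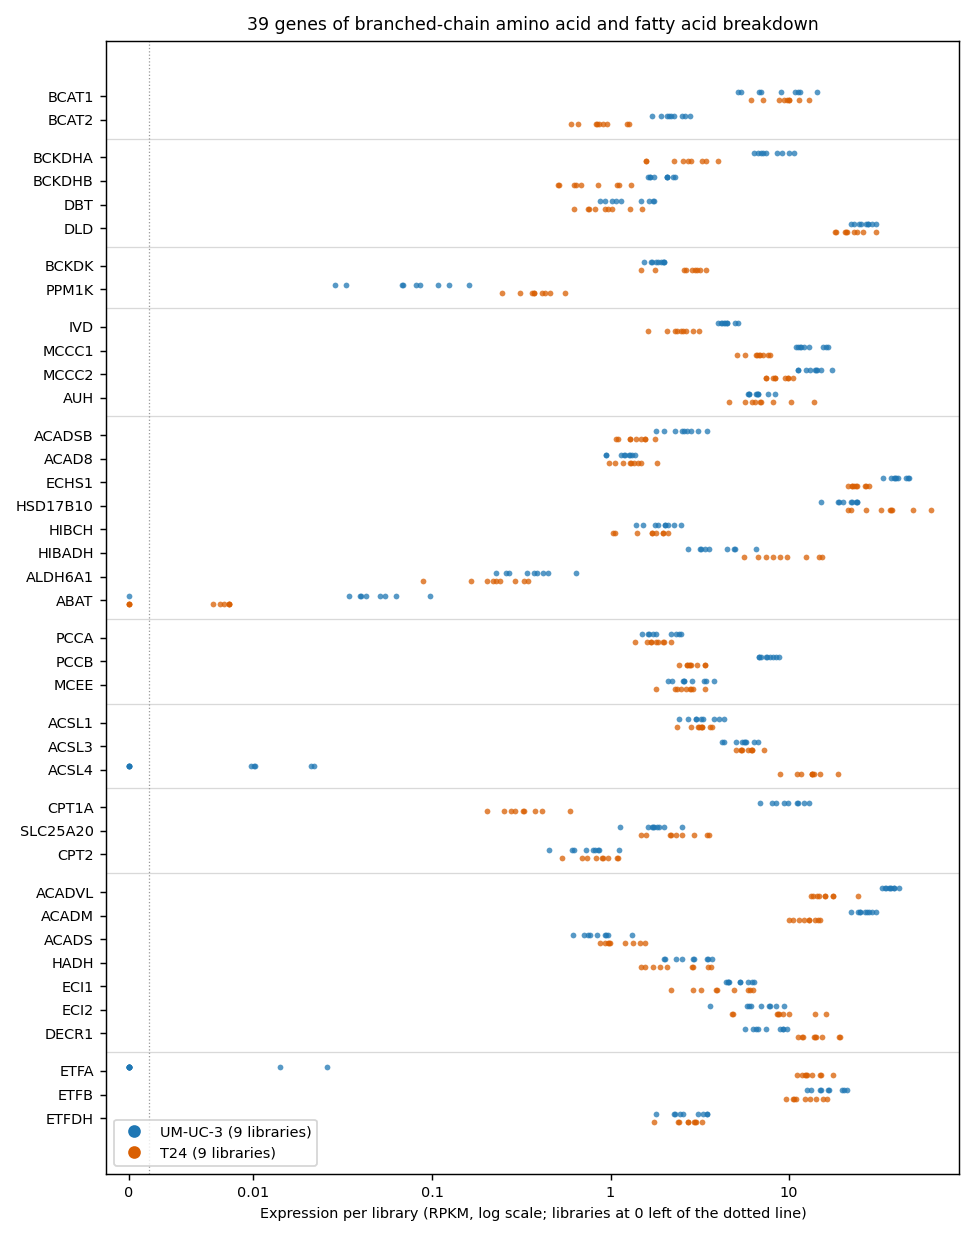
Expression of the 39 genes in every library in RPKM on a logarithmic axis, with values of 0 placed left of the dotted line and 9 libraries per cell line. ETFA and ACSL4 lie at or near 0 RPKM in the 9 UM-UC-3 libraries and above 8 RPKM in the 9 T24 libraries, and CPT1A lies between 6.85 and 12.9 RPKM in UM-UC-3 cells and between 0.204 and 0.595 RPKM in T24 cells.

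Within each siRNA the lines were compared, UM-UC-3 against T24, which gives 3 differences that share no library. With siNC, 22 of the 39 genes differed at an adjusted p under 0.05, where 44.3% of all tested genes did, of which 15 were higher in UM-UC-3 cells (22.0% of all genes were) and 7 were lower (22.3%). With siACAT1-1, 21 differed (44.4% of all genes), 12 higher (21.9%) and 9 lower (22.5%). With siACAT1-2, 21 differed (44.7%), 15 higher (21.8%) and 6 lower (22.9%). Of the 39 genes these were 56.4%, 53.8% and 53.8%. Leaving aside ETFA, ACSL4 and ABAT, the counts were 19, 18 and 18 of 36. Without T24 replicate 2 of all 3 siRNAs, 20, 23 and 24 of the 39 were called, against 43.9%, 46.4% and 45.5% of all genes. The median log2 difference over the 39 genes was 0.28 with siNC, 0.11 with siACAT1-1 and 0.16 with siACAT1-2, against 0.03, 0.02 and 0.01 over all genes.

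In all 3 differences, 12 genes were higher in UM-UC-3 cells (15.9% of all genes were) and 5 were lower (17.3%). The 12 were BCAT2, BCKDHA, BCKDHB, IVD, MCCC1, MCCC2, ECHS1, ABAT, PCCB, CPT1A, ACADVL and ACADM, and the 5 were PPM1K, HIBADH, ACSL4, DECR1 and ETFA. The 9 libraries of one line lay wholly above the 9 of the other for 12 genes in UM-UC-3 cells (14.2% of all genes) and for 4 in T24 cells (14.9%). These were the genes just named, with ACADSB in place of ABAT and without HIBADH. ABAT, ACSL4 and ETFA passed the filter only through the line where they were higher, so their place in these counts is a description. In all, 27 of the 39 were called in at least 1 of the 3 differences, and the 12 called in none were BCAT1, DBT, ACAD8, ALDH6A1, MCEE, ACSL1, ACSL3, CPT2, HADH, ECI1, ECI2 and ETFDH.

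**Figure D2:**
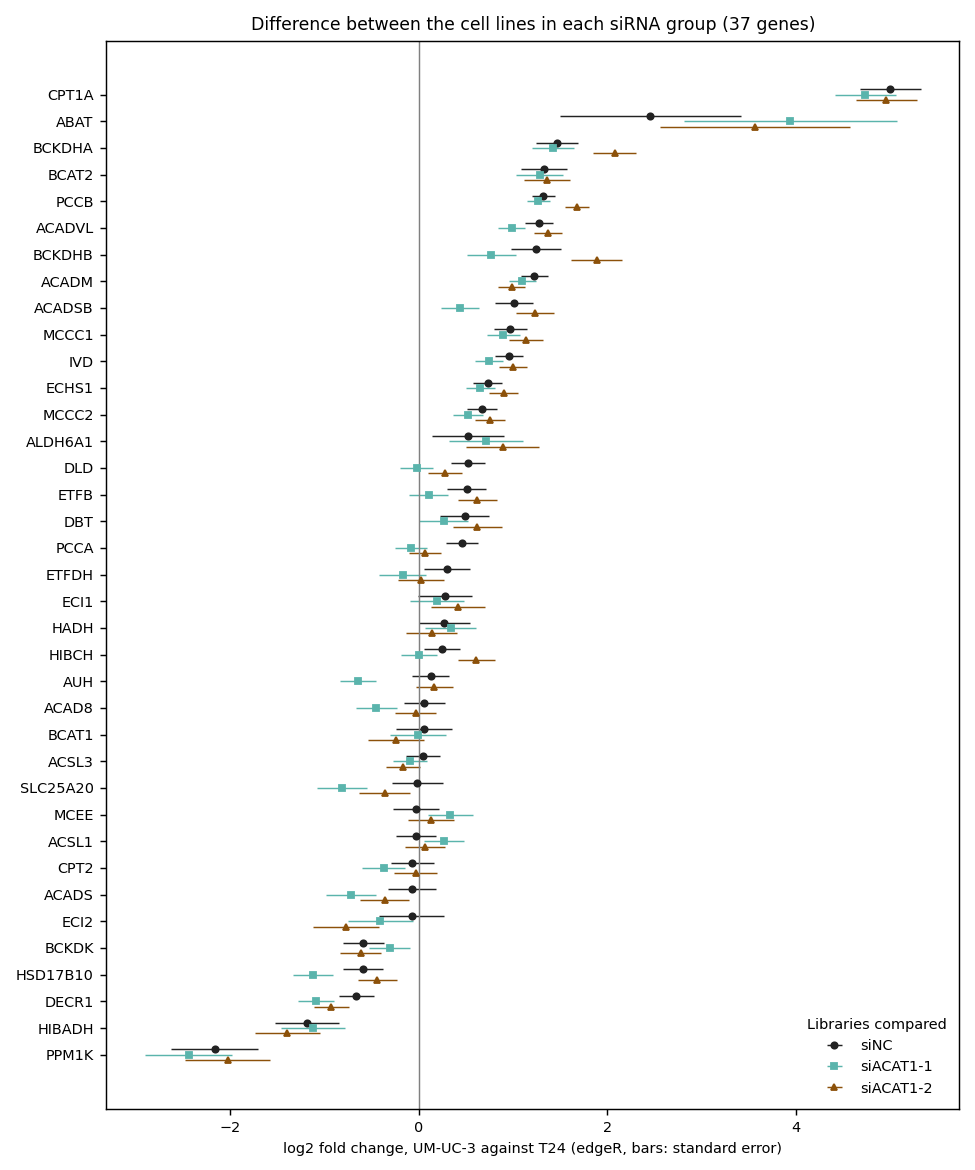
Log2 difference, UM-UC-3 against T24, with its standard error for 37 of the 39 genes, in the siNC, siACAT1-1 and siACAT1-2 libraries; ETFA and ACSL4, which are near 0 reads in UM-UC-3 cells, are left out. CPT1A is the highest at 4.74 to 5.0, ABAT comes next with wide errors, and PPM1K is the lowest at -2.45 to -2.03.

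At the first step, the aminotransferases differed. BCAT2, the mitochondrial form, was at 2.19, 2.27 and 2.13 RPKM in the siNC libraries of UM-UC-3 cells and at 0.836, 0.60 and 1.27 RPKM in those of T24 cells, with no overlap and a log2 difference of 1.33 (SE 0.25, adjusted p = 0.000356). BCAT1, the cytosolic form, was at 9.02, 6.93 and 11.5 RPKM in UM-UC-3 cells and at 7.15, 8.82 and 11.4 RPKM in T24 cells. These ranges overlapped, and the log2 difference was 0.05 (SE 0.30, adjusted p = 0.898).

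The dehydrogenase complex and its regulators lay on opposite sides. Of the 4 subunits, BCKDHA, BCKDHB and DLD were higher in UM-UC-3 cells with siNC, and DBT, the transacylase at the core, had a log2 difference of 0.49 (adjusted p = 0.138). BCKDHA, the alpha subunit of the decarboxylase, was at 8.55, 6.32 and 10.7 RPKM in UM-UC-3 cells against 2.84, 2.73 and 3.97 RPKM in T24 cells (log2 difference 1.46, SE 0.22, adjusted p = 5.91e-05). A transcript annotated on the same strand, CTC-435M10.3, shares 63.8% of its exon bases, so the reads of these genes cannot be fully separated. BCKDHB, the beta subunit, was at 2.08, 1.62 and 2.29 RPKM against 0.849, 0.628 and 1.12 RPKM (log2 difference 1.24, SE 0.26, adjusted p = 0.00114). DLD, which also serves the pyruvate dehydrogenase complex, was higher with siNC alone (0.52, SE 0.18, adjusted p = 0.0258), with differences of -0.02 (adjusted p = 0.927) and 0.28 (adjusted p = 0.215) with siACAT1-1 and siACAT1-2.

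Both regulators were lower in UM-UC-3 cells with siNC, the kinase as well as the phosphatase. PPM1K, the phosphatase that activates the complex, was at 0.0685, 0.0329 and 0.108 RPKM in UM-UC-3 cells and at 0.309, 0.415 and 0.248 RPKM in T24 cells (log2 difference -2.17, SE 0.46, adjusted p = 0.00111). It was low in both lines, and its 9 UM-UC-3 libraries (0.0287 to 0.160 RPKM) lay below its 9 T24 libraries (0.248 to 0.552 RPKM). BCKDK, the kinase that inhibits the complex, was at 1.92, 1.98 and 1.68 RPKM against 2.64, 2.99 and 3.06 RPKM, a smaller log2 difference of -0.59 (SE 0.21, adjusted p = 0.0337) that was not called with siACAT1-1 (-0.31, adjusted p = 0.258).

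In the leucine branch, 3 of 4 genes were higher in UM-UC-3 cells with every siRNA. MCCC1, the biotin-carrying subunit of methylcrotonyl-CoA carboxylase, was at 11.5, 11.6 and 16.5 RPKM against 6.5, 6.63 and 7.66 RPKM in T24 cells (log2 difference 0.97, SE 0.18, adjusted p = 0.000304). Its partner MCCC2 (0.67, adjusted p = 0.00288) and the isovaleryl-CoA dehydrogenase IVD (0.96, adjusted p = 7.93e-05) differed the same way. AUH, the methylglutaconyl-CoA hydratase, was lower in UM-UC-3 cells in the siACAT1-1 libraries alone (-0.65, SE 0.19, adjusted p = 0.0122), where its T24 level was raised, as given below.

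The 8 genes of the isoleucine and valine branches were split with siNC, with 3 higher in UM-UC-3 cells, 2 lower and 3 not called. ACADSB, the short branched-chain acyl-CoA dehydrogenase, was at 2.69, 3.08 and 2.51 RPKM against 1.56, 1.10 and 1.56 RPKM in T24 cells (log2 difference 1.01, SE 0.20, adjusted p = 0.000699), and ECHS1 was also higher (0.73, SE 0.15, adjusted p = 0.00103). ABAT was counted as higher too, on 35 reads against 6 over the siNC libraries, a ratio of 5.80 with an exact 95% interval of 2.41 to 16.9 that covers counting error only. It passed the filter only through UM-UC-3 cells. Its difference is thus a description, and its adjusted p of 0.0477 (log2 difference 2.46, SE 0.96) is no test of it. Of 18 fits that each dropped 1 library, ABAT was called in 3, with adjusted p from 0.00577 to 0.173. Without T24 replicate 2 of all 3 siRNAs it was at 2.45 (adjusted p = 0.0973).

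HIBADH, the hydroxyisobutyrate dehydrogenase of valine breakdown, was lower in UM-UC-3 cells, at 3.39, 2.72 and 4.93 RPKM against 5.62, 12.4 and 8.14 RPKM in T24 cells (log2 difference -1.19, SE 0.34, adjusted p = 0.00955). The highest T24 value belongs to replicate 2, which was also highest with both ACAT1 siRNAs (14.7 and 15.4 RPKM), and the largest adjusted p on leaving out 1 library was 0.0487. Without replicate 2 of all 3 siRNAs the log2 difference was -0.91 (adjusted p = 0.0203). HSD17B10 was at 24.2, 24 and 23.7 RPKM in UM-UC-3 cells and at 36.6, 37.7 and 37.5 RPKM in T24 cells (log2 difference -0.59, SE 0.21, adjusted p = 0.0295), a gap that was wider with siACAT1-1 (-1.13, adjusted p = 0.000379) and not called with siACAT1-2 (-0.44, adjusted p = 0.0999).

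Propionyl-CoA carboxylase makes methylmalonyl-CoA from the end products of isoleucine, valine and odd-chain fatty acids. Its beta subunit PCCB was at 6.98, 7.51 and 7.87 RPKM in UM-UC-3 cells and at 2.80, 3.38 and 3.06 RPKM in T24 cells (log2 difference 1.32, SE 0.13, adjusted p = 3.27e-07). STAG1 overlaps 22.1% of the exon bases of PCCB on the opposite strand, and the strand setting of the counting was not given in the sources used here. The alpha subunit PCCA differed less (0.45, SE 0.17, adjusted p = 0.0382) and was not called with either ACAT1 siRNA (-0.09 and 0.06).

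On the fatty acid side, CPT1A, the carnitine palmitoyltransferase of the outer membrane and the regulated entry to beta-oxidation, showed the largest difference of those among the 39 with reads in all 18 libraries. It lies on the minus strand at chr11:68754620-68844410 (GRCh38) and was at 8.43, 11.2 and 9.35 RPKM in the siNC libraries of UM-UC-3 cells (9.65 ± 1.40, SD, n = 3) and at 0.204, 0.324 and 0.413 RPKM in those of T24 cells (0.314 ± 0.105, SD, n = 3). The log2 difference was 5.0 (SE 0.32, adjusted p = 3.99e-09), and it was 4.74 and 4.96 with siACAT1-1 and siACAT1-2. The other members of the carnitine shuttle did not follow, with log2 differences of -0.02 for the carrier SLC25A20 and -0.07 for CPT2, the inner membrane transferase, and the carrier was lower in UM-UC-3 cells with siACAT1-1 (-0.82, SE 0.27, adjusted p = 0.0198).

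Of the 7 genes of the beta-oxidation spiral, 2 were higher in UM-UC-3 cells with siNC, 1 was lower and 4 were not called. The 2 were the dehydrogenases for very long and for medium chains. ACADVL was at 34.6, 33.0 and 38.9 RPKM against 13.6, 15.9 and 15.9 RPKM in T24 cells (log2 difference 1.28, SE 0.15, adjusted p = 2.75e-06). ACADM, the medium-chain enzyme, was at 25, 28.0 and 22.3 RPKM against 10.5, 12.9 and 9.999 RPKM (log2 difference 1.22, SE 0.14, adjusted p = 3.59e-06). For the short-chain dehydrogenase ACADS the log2 difference was -0.07 (adjusted p = 0.839), and in the siACAT1-1 libraries it was -0.72 (adjusted p = 0.0331). DECR1, the dienoyl-CoA reductase needed for unsaturated chains, was lower in UM-UC-3 cells (-0.66, SE 0.19, adjusted p = 0.00886), and its 9 UM-UC-3 libraries (5.64 to 9.77 RPKM) lay below its 9 T24 libraries (11.2 to 19.3 RPKM).

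ETFA, on the minus strand at chr15:76215355-76311472, had 0 reads in all 3 siNC libraries of UM-UC-3 cells and 12.5, 12.4 and 15.1 RPKM in those of T24 cells, from 6040 reads in all. Set against a floor of 3 reads over the group, this is at least 2026-fold lower in UM-UC-3 cells. Reads of ETFA were absent from 7 of the 9 UM-UC-3 libraries, and the other 2 held 2 and 4 reads, against 17597 reads over the 9 T24 libraries. Its partner ETFB, the beta subunit with which it forms the working flavoprotein, was present in UM-UC-3 cells at 12.5 to 21.1 RPKM (median 16.5) and in T24 cells at 9.66 to 16.3 RPKM (median 12.3), and the oxidoreductase ETFDH at 1.81 to 3.48 and 1.75 to 3.27 RPKM. ETFB differed with siACAT1-2 alone (0.62, SE 0.21, adjusted p = 0.0212).

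ACSL4, on the minus strand at chrX:109624244-109733403, showed the same pattern, with 0, 0.00972 and 0.0101 RPKM in the siNC libraries of UM-UC-3 cells and 13.9, 11.1 and 8.95 RPKM in those of T24 cells. This was 4 reads against 6676, a ratio of 1679 with an exact 95% interval of 656 to 6165, and the ratios were 1491 (685 to 4065) with siACAT1-1 and 1767 (690 to 6486) with siACAT1-2. The intervals cover counting error only and take reads as independent, while 74.4% of the gene values from 1 to 10 reads were even numbers. ACSL1 and ACSL3, which activate the same kind of long-chain fatty acid, did not differ at the threshold in any of the 3 comparisons, with log2 differences from -0.17 to 0.27.

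The genes beside ETFA and ACSL4 were then looked at, a step chosen after these values were seen. Of 55 genes within 1 Mb of ETFA, 18 had 1000 reads or more over the 9 T24 libraries, and of these ETFA alone had 20 or fewer over the 9 UM-UC-3 libraries. The nearest genes with at least 100 reads in a line were NRG4 (554 reads in T24, 689 in UM-UC-3) and ISL2 (226 and 361). Another 3 genes, of which TMEM266 and TYRO3P overlap the span of ETFA and RP11-593F23.1 lies outside it, had few reads in T24 cells and 0 in UM-UC-3 cells, namely TMEM266 (47 in T24), RP11-593F23.1 (28) and TYRO3P (18). Around ACSL4, of 18 genes within 1 Mb 6 had 1000 reads or more in T24 cells, and 5 of these had 20 or fewer in UM-UC-3 cells.

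ACSL4 stood in an unbroken run of 6 genes with at least 100 reads in T24 cells and almost none in UM-UC-3 cells, which spans 1260 kb. In order along the chromosome they were NXT2 (1719 reads in T24, 0 in UM-UC-3), KCNE5 (110 and 0, with 78 exon bases shared with ACSL4), ACSL4 (22321 and 14), TMEM164 (3379 and 2), AMMECR1 (1896 and 0) and CHRDL1 (1354 and 8). The run was flanked by COL4A5 (3552 and 3306 reads), present in both lines, and by PAK3 (1611 and 26 reads), which was low in UM-UC-3 cells as well. Over the whole table, 183 of 11691 genes with 1000 reads or more in T24 cells (1.57%) had 20 or fewer in UM-UC-3 cells, and so did 2 of 34 of the genes described here. In the other direction it was 126 of 11493 genes (1.10%) and 0 of 32.

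**Figure D3:**
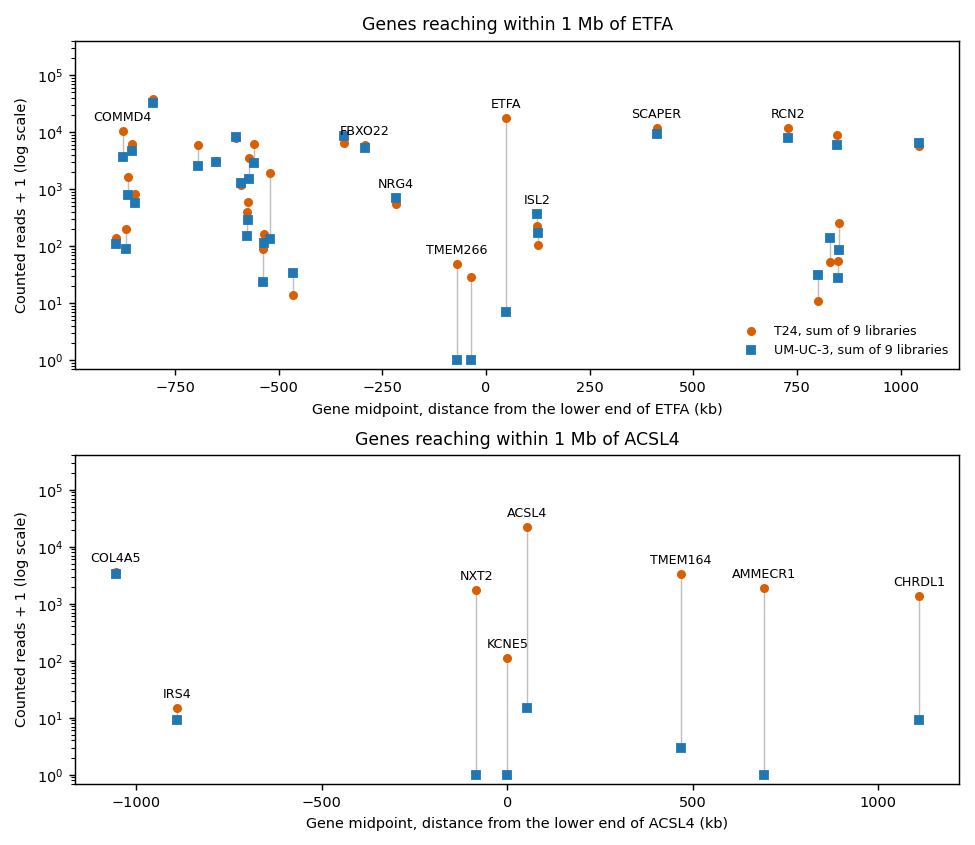
Reads plus 1, summed over the 9 libraries of each cell line on a logarithmic axis, against the distance in kb from the lower end of the gene's annotated span for the genes that reach within 1 Mb of ETFA and of ACSL4. ETFA drops from 17597 reads in T24 cells to 6 in UM-UC-3 cells, the only one of the 18 genes of its window with 1000 reads or more in T24 cells to have 20 or fewer in UM-UC-3 cells, while around ACSL4 a block of 6 neighbouring genes drops to between 0 and 14.

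A wider list of 55 other genes of these pathways (thiolases, peroxisomal enzymes, carnitine and amino acid carriers, malonyl-CoA enzymes and transcription factors) was followed for comparison, of which 52 were tested. With siNC, 29 of the 52 differed between the lines, 17 higher and 12 lower in UM-UC-3 cells, with a median log2 difference of 0.18, and with siACAT1-1 and siACAT1-2 it was 33 and 31. Among those with the largest differences, ACAA2, the mitochondrial thiolase of beta-oxidation, was higher in UM-UC-3 cells (2.44, SE 0.19, adjusted p = 2.58e-08). The peroxisomal oxidase ACOX2 was counted as higher too (4.37, SE 0.82), at no more than 0.386 RPKM in the siNC libraries. The peroxisomal bifunctional enzyme EHHADH (-3.26) and the transcription factors PPARG (-4.12) and PPARGC1A (-3.63) were lower, PPARGC1A on 4 reads against 54. ACOX2 had 0 to 14 reads in each T24 library and PPARGC1A 0 to 10 in each UM-UC-3 library. Both passed the filter mainly through the line where they were higher. Their differences, and their place in these counts, are therefore a description. ACADL, the long-chain dehydrogenase, had 0 reads in UM-UC-3 cells against 34 in T24 cells, at least 11.4-fold lower.

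The knockdown itself was present in every library. ACAT1 was at 47.4, 46.5 and 44.1 RPKM with siNC in UM-UC-3 cells, where both ACAT1 siRNAs left 1.83 to 3.59 RPKM, and in T24 cells it went from between 14.6 and 17.1 RPKM to between 0.671 and 1.46 RPKM. In 12 of 12 pairs of libraries with the same cell line and replicate number it was lower with the ACAT1 siRNA, by -4.72 to -3.28 on the log2 scale. Each siNC library enters 2 of these pairs.

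Against this, none of the 39 genes passed the test against siNC with either siRNA in either line when replicate numbers were ignored. These were UM-UC-3 siACAT1-1 (0.00993% of all genes called), UM-UC-3 siACAT1-2 (0.0546%), T24 siACAT1-1 (0.124%) and T24 siACAT1-2 (0.268%), and 5, 2, 6 and 6 of the 39 had an unadjusted p under 0.05. DESeq2 called 0, 0, 1 and 1 of them, against 0.0795%, 0.113%, 2.08% and 1.27% of all genes it gave an adjusted p (AUH, 0.73, adjusted p = 0.0229, and HIBCH, -0.74, adjusted p = 0.0245). For the mean of the 4 comparisons, edgeR and DESeq2 called 0 (0.223% of all genes with edgeR and 1.64% with DESeq2, 6 of the 39 at an unadjusted p under 0.05).

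Libraries of a line that share a replicate number were, by the median, more alike beyond their group than those with other numbers. In UM-UC-3 cells the 2 kinds of pair overlapped. A fit with the number within each line as a block was therefore also made. With the block, 3 of the 39 genes were called for siACAT1-1 in UM-UC-3 cells (3.06% of all genes), 0 for siACAT1-2 in UM-UC-3 cells (1.36% of all genes, 7 of the 39 at an unadjusted p under 0.05), 7 for siACAT1-1 in T24 cells (13.9%) and 6 for siACAT1-2 in T24 cells (8.48%). For the mean of the 4 comparisons it called 5 (12.4% of all genes), of which HADH, HIBCH and PCCA fell and CPT2 and DBT rose. In the order given these were 7.69%, 0.0%, 17.9%, 15.4% and 12.8% of the 39 genes, and no test of the list was made. The median over the 39 genes of the mean log2 change was 0.01, against -0.00099 for all genes.

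**Figure D4:**
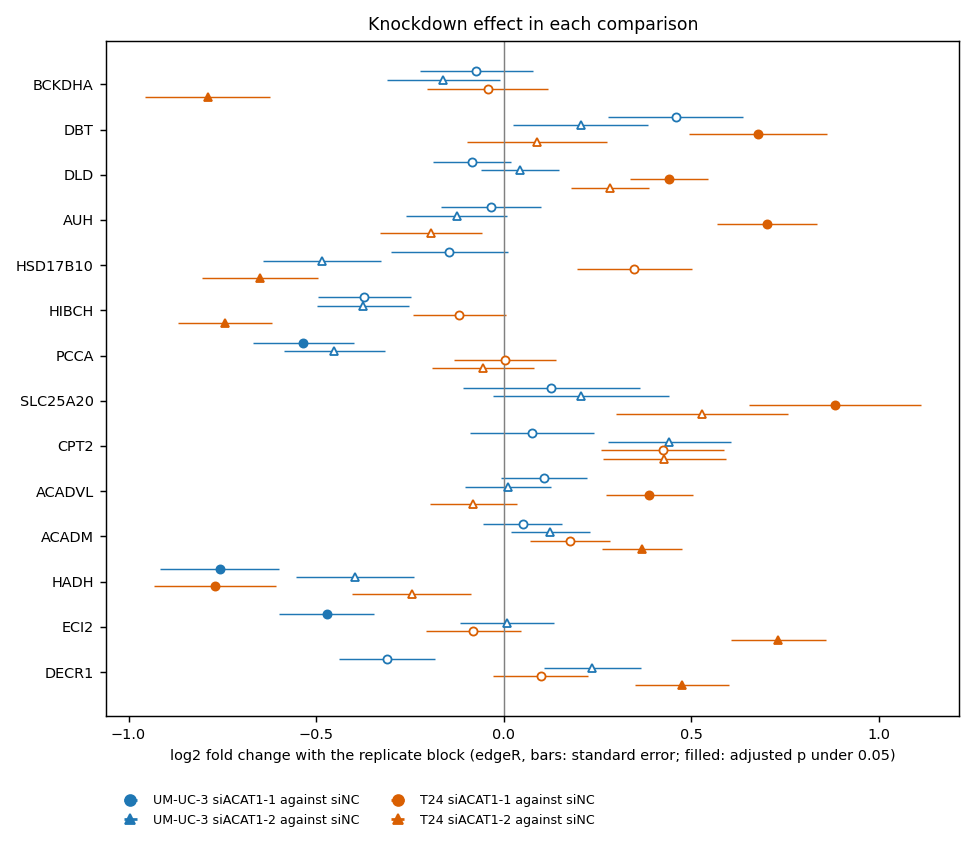
Log2 fold change of each ACAT1 siRNA against siNC in its cell line, with standard error, from the fit with the replicate block, for 14 genes called in at least 1 of the comparisons or in their mean (ACSL4, near 0 reads in UM-UC-3 cells, is left out); filled points have an adjusted p under 0.05. HADH and HIBCH lie below 0 in all 4 comparisons, and ECI2 lies at -0.47 in UM-UC-3 cells with siACAT1-1 and at 0.73 with siACAT1-2 in T24 cells.

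HADH, the dehydrogenase that oxidises the hydroxyacyl-CoA of short and medium chains, was lower in every knockdown library than in its siNC partner. It lies at chr4:107989714-108035175 on the plus strand. In UM-UC-3 cells it was at 3.70, 3.53 and 3.45 RPKM with siNC, at 1.99, 2.33 and 2.01 RPKM after siACAT1-1 and at 2.91, 2.93 and 2.51 RPKM with siACAT1-2. The siNC libraries lay above all 6 knockdown libraries there. In T24 cells it was at 3.5, 1.90 and 3.65 RPKM with siNC, at 2.08, 1.48 and 1.56 RPKM with siACAT1-1 and at 2.86, 1.72 and 2.90 RPKM with siACAT1-2, and replicate 2 was the lowest library of each siRNA, so that the groups overlapped while each knockdown library was below the siNC library of its number.

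With the block, HADH fell by 0.76 (SE 0.16, adjusted p = 0.0151) and by 0.77 (SE 0.16, adjusted p = 0.00384) on the log2 scale with siACAT1-1 in UM-UC-3 and T24 cells. With siACAT1-2 it did not pass in either line, at -0.40 (adjusted p = 0.250) in UM-UC-3 and -0.24 (adjusted p = 0.384) in T24 cells. Over the 4 comparisons it fell by 0.54 (SE 0.10, adjusted p = 0.00101), against -0.56 with an adjusted p of 0.204 without the block. Without T24 replicate 2 of all 3 siRNAs and without the block, the mean was -0.60 (adjusted p = 0.0141), while without UM-UC-3 replicate 3 of all 3 siRNAs it was -0.54 (adjusted p = 0.486). For siACAT1-1 in T24 cells the same 2 fits gave -0.98 (adjusted p = 0.0193) and -0.82 (adjusted p = 0.306). For the mean of the 4 comparisons, 1 of the 18 fits that each dropped 1 library called HADH. This was the fit without the T24 siNC replicate 2 library (-0.69, adjusted p = 0.0380), and the largest adjusted p was 0.472. For siACAT1-1 in T24 cells 0 of the 18 did, with adjusted p from 0.0612 to 0.558.

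HIBCH, the hydrolase that frees hydroxyisobutyrate in valine breakdown, lies at chr2:190189735-190344193 on the minus strand. In UM-UC-3 cells it was at 2.47, 2.27 and 2.01 RPKM with siNC, at 2.09, 1.78 and 1.39 RPKM with siACAT1-1 and at 2.01, 1.83 and 1.52 RPKM with siACAT1-2. In T24 cells it was at 1.96, 1.80 and 2.11 RPKM with siNC, at 1.70, 1.71 and 1.97 RPKM with siACAT1-1 and at 1.05, 1.03 and 1.41 RPKM with siACAT1-2. The siACAT1-2 libraries of T24 cells lay below all other T24 libraries. With the block it fell by 0.74 there (SE 0.13, adjusted p = 0.000981), and by 0.40 over the 4 comparisons (SE 0.07, adjusted p = 0.00157, against 0.204 without the block).

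HADH and HIBCH were the only genes of the 39 that were lower with the ACAT1 siRNA in 12 of 12 pairs (1.91% of all genes were), by -1.17 to -0.14 and by -0.86 to -0.05. None of the 39 was higher in 12 of 12 pairs (1.64% of all genes were). In 10 or more of the 12 pairs, 6 genes were lower (11% of all genes were), HSD17B10, ALDH6A1, ACADS and ECI1 beside HADH and HIBCH, and 4 were higher (10.7%), CPT2, DBT, HIBADH and ACADM. CPT2 was a gene of low level, at 0.610, 0.623 and 0.731 RPKM with siNC in UM-UC-3 cells and 0.452 to 1.11 RPKM with the ACAT1 siRNAs there. It rose by 0.34 with the block over the 4 comparisons (SE 0.10, adjusted p = 0.0318, against 0.381 without the block).

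**Figure D5:**
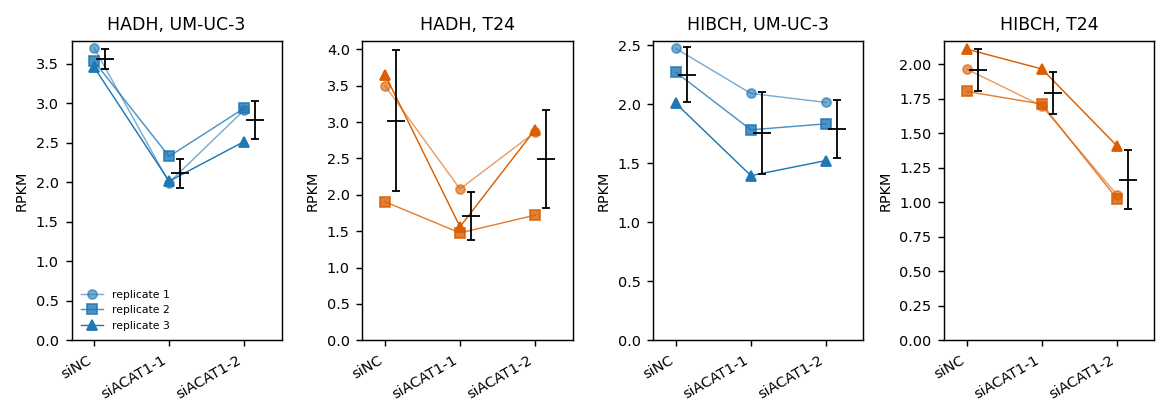
HADH and HIBCH in RPKM in each library, by cell line and siRNA, with thin lines joining libraries of the same replicate number and black marks for the mean ± SD (n = 3). Each line from siNC to either ACAT1 siRNA goes down, and T24 replicate 2 runs below the other T24 libraries for HADH.

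In UM-UC-3 cells PCCA was also lower with siACAT1-1, at 1.73, 1.62 and 1.65 RPKM against 2.43, 2.47 and 2.33 RPKM with siNC, without overlap. It was lower by 0.53 on the log2 scale with the block (SE 0.14, adjusted p = 0.0366). Without the block it was at -0.54 (adjusted p = 0.876). With siACAT1-2 PCCA was at 2.18, 1.79 and 1.50 RPKM (-0.45, adjusted p = 0.109). ECI2, an enoyl-CoA isomerase of mitochondria and peroxisomes, was at 7.74, 8.40 and 6.14 RPKM with siNC and at 5.81, 6.99 and 3.63 RPKM after siACAT1-1 (-0.47, SE 0.13, adjusted p = 0.0475 with the block). Without the block ECI2 was at -0.44 (adjusted p = 0.980). The opposite strand carries other genes over 29.8% of its exon bases. None of the 18 fits that each dropped 1 library, made without the block, called PCCA or ECI2 in this comparison.

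In T24 cells, siACAT1-1 went with 6 genes that rose beside HADH, all with the block, and AUH also with DESeq2 without it. AUH went from 6.20, 6.41 and 6.97 RPKM to 8.16, 10.3 and 13.9 RPKM, with no overlap (0.70, SE 0.13, adjusted p = 0.00179). DLD went from 20.6, 18.1 and 18.2 RPKM to 30.8, 20.7 and 25.9 RPKM (0.44, SE 0.10, adjusted p = 0.00781). The carrier SLC25A20 went from 1.48, 2.15 and 1.58 RPKM to 3.47, 2.53 and 3.57 RPKM (0.88, SE 0.23, adjusted p = 0.0138). The groups did not overlap for these 3 genes, nor for DBT and ACADVL given below. How many of all genes had no overlap in this comparison was not counted. For DLD and SLC25A20 the increase was smallest in replicate 2. Without the block and without T24 replicate 2 of all 3 siRNAs, DLD was at 0.53 (adjusted p = 0.140) and SLC25A20 at 1.18 (adjusted p = 0.0522). DBT rose from 0.933, 0.628 and 0.824 RPKM to 1.28, 1.02 and 1.50 RPKM (0.68, SE 0.18, adjusted p = 0.0176), ACADVL reached 17.5, 17.6 and 24.3 RPKM (0.39, adjusted p = 0.0293) and ACSL4 18.8, 14.9 and 13.4 RPKM (0.49, adjusted p = 0.0314). Without the block, edgeR called none of these 6 genes, with adjusted p from 0.130 for AUH to 0.618 for ACSL4.

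With siACAT1-2 in T24 cells, 3 genes fell and 3 rose with the block. Beside HIBCH, BCKDHA fell from 2.84, 2.73 and 3.97 RPKM to 1.59, 2.28 and 1.58 RPKM (-0.79, SE 0.17, adjusted p = 0.00534) and HSD17B10 from 36.6, 37.7 and 37.5 RPKM to 27.1, 21.5 and 22.1 RPKM (-0.65, SE 0.16, adjusted p = 0.0123). ECI2 rose from 9.96, 4.80 and 9.28 RPKM to 16.0, 8.71 and 14.1 RPKM (0.73, SE 0.13, adjusted p = 0.00106), and its groups overlapped only through replicate 2, without which and without the block it was at 0.65 (adjusted p = 0.386). DECR1 rose from 11.8, 11.9 and 14.2 RPKM to 19.1, 13.9 and 19.3 RPKM (0.47, SE 0.13, adjusted p = 0.0230), at 0.58 (adjusted p = 0.176) without the block and without replicate 2. ACADM rose to 12.9, 14.8 and 14.6 RPKM (0.37, SE 0.11, adjusted p = 0.0348). Without the block, edgeR called none of these genes, with adjusted p from 0.182 for HIBCH to 0.614 for ECI2.

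The effect of knockdown was not shown to differ between the lines for any of the 39 genes, with 0 called without the block (0.0% of all genes, 1 of the 39 at an unadjusted p under 0.05) and 0 with it (0.104% of all genes, 4 of the 39). The siRNAs were then set against each other (siACAT1-2 minus siACAT1-1, mean of both lines), a contrast in which siNC is not the reference. Without the block, 1 of the 39 genes differed (2.56% of all genes) and 15 had an unadjusted p under 0.05, and with the block 13 differed (20.6% of all genes), 4 higher and 9 lower with siACAT1-2.

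The gene called in both fits was HSD17B10, at 20.1, 22.6 and 22.2 RPKM with siACAT1-1 and 19.1, 18.7 and 15.1 RPKM with siACAT1-2 in the UM-UC-3 line. In T24 cells the values were 49.6, 32.8 and 62.2 RPKM and 27.1, 21.5 and 22.1 RPKM. It was lower with siACAT1-2 in 6 of 6 pairs, by -0.68 on the log2 scale (SE 0.15, adjusted p = 0.0234, and -0.67 with the block). How many of all genes were lower in 6 of 6 pairs was not counted. In T24 cells the siNC libraries, at 36.6 to 37.7 RPKM, lay between the siRNAs for replicates 1 and 3, while in replicate 2 both siRNAs were below siNC. The call was made in 12 of the 18 fits that left out 1 library. It was lost without replicate 1 of UM-UC-3 siACAT1-1 (adjusted p = 0.0555), replicates 2 and 3 of UM-UC-3 siACAT1-2 (0.0584 and 0.0578), replicates 1 and 3 of T24 siACAT1-1 (0.0690 and 0.0577) or replicate 3 of T24 siACAT1-2 (0.0743).

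With the block, ECI2 (0.65, adjusted p = 5.84e-05), DECR1 (0.46), HADH (0.44) and BCAT2 (0.40) were higher with siACAT1-2 than with siACAT1-1, each in 6 of 6 pairs. BCAT1 (-0.49, adjusted p = 0.00082), BCKDHA (-0.42) and IVD (-0.30) were lower in 6 of 6, and AUH (-0.49), HIBCH (-0.31), ACADVL (-0.28) and DBT (-0.42) in 5 of 6. ACADM, which was not called, was also higher in 6 of 6 pairs (0.06 to 0.34). The pairs hold the same libraries as the fit. How many of all genes kept to 1 side in 6 of 6 pairs was not counted. ETFA makes up the count of 13, and its log2 difference is not given, since it rests on 6 reads in UM-UC-3 cells. HADH was lower with siACAT1-1 than with siACAT1-2, whereas ACAT1 itself was lower with siACAT1-2 (-0.62 with the block, adjusted p = 0.000816).

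Of the wider pathway list, none of the 52 genes was called in the 4 comparisons or their mean without the block (3, 3, 8 and 6 at an unadjusted p under 0.05 in the 4 comparisons, 6 in the mean, and 2 for the mean with DESeq2). With the block, 0 and 2 were called in UM-UC-3 cells with siACAT1-1 and siACAT1-2, and 10 and 4 in T24 cells, or 0.0%, 3.85%, 19.2% and 7.69% of the 52 against 3.06%, 1.36%, 13.9% and 8.48% of all genes. Over the mean of the 4 comparisons 7 were called (13.5% against 12.4% of all genes), 4 higher and 3 lower, among them CPT1C, the neuronal relative of CPT1A (-0.61), the cobalamin enzyme MMAB (-0.56) and the fatty acid sensor PPARA (0.36).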

How the data were processed

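RNA-seq libraries were made by the authors with a stranded kit that adds molecular identifiers, and per the labels the reads were trimmed with Trimmomatic 0.36, aligned to GRCh38 with STAR 2.5.3 and counted with featureCounts of Subread 1.5.1. The strand setting and annotation release were not given in the sources used here. The deposited counts hold whole reads per gene for 39496 genes and 18 libraries, not normalized. The authors' RPKM values come from these counts (largest relative error on recalculation 6.4e-07). Unused columns of per-sample values numbered 0. Replicate libraries differed beyond sampling noise in 18 of 18 pairs (chi-square divided by its degrees of freedom from 13.0 to 194).

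Counts were fitted with edgeR 4.0.16 in R 4.3.3 (TMM, filterByExpr by group, quasi-likelihood test, 6 group coefficients over all 18 libraries), with Benjamini-Hochberg adjustment over 20144 genes and a threshold of 0.05. The fit was tested on simulated data. To see whether replicate numbers pair the libraries, deviations from group means were correlated over genes (genes are not independent replicates). All 9 same-number pairs of UM-UC-3 libraries had r between 0.115 and 0.576 (median 0.43), and all 9 of T24 libraries between 0.356 and 0.686 (median 0.52). Pairs of the same line with other numbers had r from -0.55 to 0.27 (median -0.11) in UM-UC-3 cells. In T24 cells they ran from -0.57 to 0.21 (median -0.40). The ranges of the 2 kinds of pair thus overlapped in UM-UC-3 cells but not in T24 cells. The labels do not say what a number marks, so the pairing comes from these values. Alternatives were DESeq2 1.42.0, its size factors, no filter, the replicate block, fits of fewer groups and each library left out. Removal of T24 replicate 2 or of UM-UC-3 replicate 3 from all siRNAs was added after seeing the data. The members, the wider list of pathway genes and the markers were chosen with earlier results of these data known. Values per library are given for the 14 members with the largest siNC difference between the lines, for up to 8 members with the smallest p in each knockdown contrast, and for CPT1A, BCKDK, PPM1K, BCAT1, BCAT2 and ACAT1; other pathway genes are named for up to 6 with the largest change in a contrast. HSD17B10 and DECR1 values between the lines, and the neighbours of ETFA and ACSL4, were added after their values were seen. Promoters were read from RefSeq (GRCh38.p14).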

Additional observations from a re-analysis of the deposited data

Results flagged for a closer look

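HSD17B10 stood out because the test of the difference between the 2 ACAT1 siRNAs found one, at -0.68 on the log2 scale (siACAT1-2 minus siACAT1-1, mean of both cell lines, adjusted p = 0.0234 with edgeR). It was lower with siACAT1-2 in 6 of 6 pairs of the same line and replicate number, from -1.51 to -0.06, which was not counted over all genes. Without UM-UC-3 replicate 3 of all 3 siRNAs it was -0.61 (adjusted p = 0.117), and without T24 replicate 2 of all 3 siRNAs it was -0.74 (adjusted p = 0.00307).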

How the results depend on the processing

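Between the cell lines, the counts of members called stayed within 1.5 times the reported ones under every alternative run, and leaving out 1 library gave 18 to 23 with siNC, 17 to 21 with siACAT1-1 and 18 to 22 with siACAT1-2 (24 to 31 for the other pathway genes with siNC). No paired analysis was possible because replicate numbers lie within a cell line for these differences. The knockdown counts depended on the replicate block, with which the members called were 3 and 7 with siACAT1-1 (UM-UC-3, then T24), 0 and 6 with siACAT1-2, 5 for the mean and 13 between the siRNAs, against 0, 0, 0, 0, 0 and 1 without it, and 7 against 0 of the other pathway genes for the mean. Over all genes the block called 2500 for the mean against 45 without it, 309 with DESeq2 and 383 without the filter. DESeq2 called 1 member in each T24 comparison (2.08% and 1.27% of all genes), 5 between the siRNAs (1310 of 17276 genes) and 2 other pathway genes for the mean. Without the filter 2 members were called between the siRNAs (884 of 39496 genes). Without T24 replicate 2 of all siRNAs, 2 members were called with siACAT1-1 in T24 cells, 1 for the mean and 5 between the siRNAs. Over all 20458 genes the calls there were 593, 436 and 1401. Of the other pathway genes, 1 was called for the mean. Without UM-UC-3 replicate 3 of all siRNAs, 0 members were called between the siRNAs (166 of 20485 genes). Leaving out 1 library gave 0 to 0 in both UM-UC-3 comparisons, with siACAT1-2 in T24 cells and for the difference between the lines, 0 to 1 with siACAT1-1 in T24 cells (1 without its replicate 2), 0 to 1 for the mean (1 without T24 siNC replicate 2), 0 to 1 for the other pathway genes (1 without T24 siACAT1-1 replicate 2) and 0 to 3 between the siRNAs. The fits named in brackets called 452, 143 and 128 of all genes, and those between the siRNAs 165 to 900. The cause was not tested. Over the values of single genes, 982 stayed on their side of the threshold, 41 passed it only under the alternative, 24 lost it, and 0 changed direction. These genes were picked because they were called with or without the block in these same data. Staying on a side includes genes called in neither fit, so the tally is no test of them. Genes with few reads, ABAT, PPM1K, ETFA and ACSL4 in UM-UC-3 cells among them, limit what a fold can show.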
